A study of Mus musculus with 8 samples.

Results

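Notch receptors, ligands and the segmentation genes that work with them were followed across mouse embryonic stem cells (mESCs) and mesoderm progenitors made from them. Of the 37620 genes counted, 10 were chosen by name, and all 10 were found through their annotated symbols. They are the receptors Notch1, Notch2 and Notch3, the ligands Dll1, Dll3 and Jag1, the modifier Lfng, and the transcription factors Hes1, Hes7 and Hey1. All 10 passed the filter on low counts (at least 10 counts in at least 2 libraries), which left 16961 genes for testing.

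RNA-seq was carried out on 8 libraries in 5 groups. R1 is an established mESC line, and 7 libraries came from it. Its mESCs were grown with serum and no feeder cells, in the presence of 3 µM CHIR99021 (an inhibitor of GSK3) and 1 µM PD0325901 (an inhibitor of MEK), a pair called 2i. The 2i library was collected on day 5. A 2 µM JAK inhibitor was added for 2iJ, also collected on day 5, so both compounds of 2i were present in every mESC group. The 2iJ+B-A cells received BMP4 at 10 ng/ml and 10 µM ALK5 inhibitor on top of 2iJ, and were collected on days 2, 5 and 11. Sorted cells were the GFP-positive fraction of a CDX2-GFP line, in which green fluorescent protein reports on Cdx2, after 2 days in 2iJ+B-A. The mesoderm progenitors of days 3 and 4 came from embryoid bodies, in a medium supplemented with BMP4, Activin A and Wnt3a. The study's methods list no serum for that medium, and by those methods the day 4 cells had also been given IWP-2, an inhibitor of Wnt secretion, on day 3. Every library is thus a culture of its own day, and p-values measure the spread between such libraries.

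Notch receptors are membrane proteins that are cut when a ligand on a neighbouring cell binds them. The freed intracellular part enters the nucleus, joins the DNA-binding protein RBPJ and a Mastermind-like coactivator, and switches on genes of the Hes and Hey families, which encode repressors. Fringe enzymes such as LFNG add sugars to the receptor and change how it answers to different ligands. In the presomitic mesoderm, the tissue that is cut into somites, this circuit oscillates: Lfng, Hes7 and Hes1 are cycling genes of the segmentation clock, and Dll1 and Dll3 are needed for regular somites. DLL3 differs from the other ligands in that it acts mostly inside the cell that makes it.

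Depth was between 24532587 and 31453888 gene counts in the 7 R1 libraries and 19810855 in the sorted library. Values are given as CPM, counts on the strand of the gene scaled so that each library has the same total, with 95% Wilson intervals that cover counting error only. In the sorted library 29.7% of read pairs were unmapped and 27.8% fell outside exons, against ranges of 2.17% to 3.85% and 7.83% to 13.2% in the others. Sample codes in the labels start with one letter for the mesoderm progenitors, another for the sorted cells and another for the unsorted mESCs, so any batch along those codes cannot be told apart from the groups. The mesoderm label was checked against markers. The summed level of 9 primitive streak and nascent mesoderm genes was 1893 CPM on day 3 and 302 CPM on day 4, against 11.6 to 60.9 CPM in the 6 mESC libraries. Pluripotency genes summed to 982 and 194 CPM on the same days and to between 2504 and 4480 CPM in the mESC libraries.

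The genes lie on 7 chromosomes of the NCBIM37 mouse genome. Among the receptors, Notch1 (ENSMUSG00000026923) lies at chr2:26313423-26372183, Notch2 (ENSMUSG00000027878) at chr3:97817461-97954290 and Notch3 (ENSMUSG00000038146) at chr17:32257765-32303825. Dll1 (ENSMUSG00000014773) lies at chr17:15504318-15513836, Dll3 (ENSMUSG00000003436) at chr7:29076673-29087257 and Jag1 (ENSMUSG00000027276) at chr2:136907192-136942380. Lfng (ENSMUSG00000029570) is at chr5:141083295-141091497 and Hes1 (ENSMUSG00000022528) at chr16:30064470-30067882. Hes7 (ENSMUSG00000023781) is at chr11:68933906-68937557 and Hey1 (ENSMUSG00000040289) at chr3:8663362-8667039. All 10 are annotated as protein coding. Notch1, Notch3, Dll1 and Hes7 overlap annotated genes on the opposite strand, and strand-specific counting keeps these apart.

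Promoter sequence is shown for Lfng, Hes7 and Dll3, 3 of the 6 genes that were highest of all 8 libraries in the day 3 mesoderm progenitors (with Notch1, Dll1 and Hes1; 15.3% of all genes tested). Each line gives the 250 bases before the RefSeq start of the gene, read 5′ to 3′ along its own strand in build GRCm38.p6, whose coordinates differ from those of the counts. Capitals mark the core of the RBPJ site, TGGGAA or its reverse complement TTCCCA.
Lfng (chr5:140607091-140607340, plus strand): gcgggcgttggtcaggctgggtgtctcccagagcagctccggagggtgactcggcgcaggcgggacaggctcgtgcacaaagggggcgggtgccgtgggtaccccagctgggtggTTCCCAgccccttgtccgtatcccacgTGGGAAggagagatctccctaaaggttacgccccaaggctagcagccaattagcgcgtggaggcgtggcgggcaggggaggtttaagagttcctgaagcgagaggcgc
Hes7 (chr11:69120203-69120452, plus strand): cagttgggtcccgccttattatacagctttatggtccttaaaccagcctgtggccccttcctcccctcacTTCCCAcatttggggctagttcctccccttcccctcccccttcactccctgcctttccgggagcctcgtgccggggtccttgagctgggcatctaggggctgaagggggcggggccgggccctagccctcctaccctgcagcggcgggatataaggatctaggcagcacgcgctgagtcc
Dll3 (chr7:28301786-28302035, minus strand): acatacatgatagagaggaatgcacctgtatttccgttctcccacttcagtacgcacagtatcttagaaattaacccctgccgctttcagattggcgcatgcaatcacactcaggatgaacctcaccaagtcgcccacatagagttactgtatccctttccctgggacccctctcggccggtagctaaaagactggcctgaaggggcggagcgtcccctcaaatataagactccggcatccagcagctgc

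The Lfng window held 2 copies of the core, an antisense copy from -135 to -130 and a sense copy from -108 to -103 relative to the start. The Hes7 window held 1 antisense copy, from -180 to -175. No copy was present in the windows of the other 6 genes with a RefSeq entry (Notch1, Notch2, Notch3, Dll1, Dll3 and Jag1), and Hes1 and Hey1 had no entry, so that 8 of 10 were searched. The core was present in 21.6% of 32817 promoter windows of this length, so a single copy is a common match. The half-site of T-box factors such as TBX6, GTGTGA or TCACAC, was found in 12.3% of windows and, among these genes, once, in Dll3 from -146 to -141. The core of the TCF/LEF site, CTTTGA or TCAAAG, was found in 13.8% of all windows and in none of these 8 genes. Sites bound by HES repressors, here the N-box CACNAG or CTNGTG, were present in 36.7% of windows and in those of Notch1, Notch2, Notch3, Lfng and Hes7. These matches describe letters in the sequence and carry no measurement of binding.

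The comparison of mesoderm progenitors with 2iJ+B-A mESCs asks how a differentiated cell type of another lineage differs from the treated stem cells. The study's methods list neither compound of 2i for the mesoderm medium. Cell type and the inhibitors of MEK and GSK3 can thus not be told apart here, also for genes induced by ERK signalling. Receptors, ligands, the modifier and 2 of the 3 Hes and Hey factors were higher in the mesoderm progenitors. In edgeR, 9 of the 10 genes passed an adjusted p of 0.05, each of them higher, and Hes7 did not pass. The background was large: 27% of all genes tested passed, 11.5% higher and 15.5% lower. The median log2 fold change of the 10 genes was 1.67, beside -0.03 over all genes tested. Because these are bulk cultures, fewer cells of a type and less RNA per cell cannot be told apart.

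**Figure D1:**
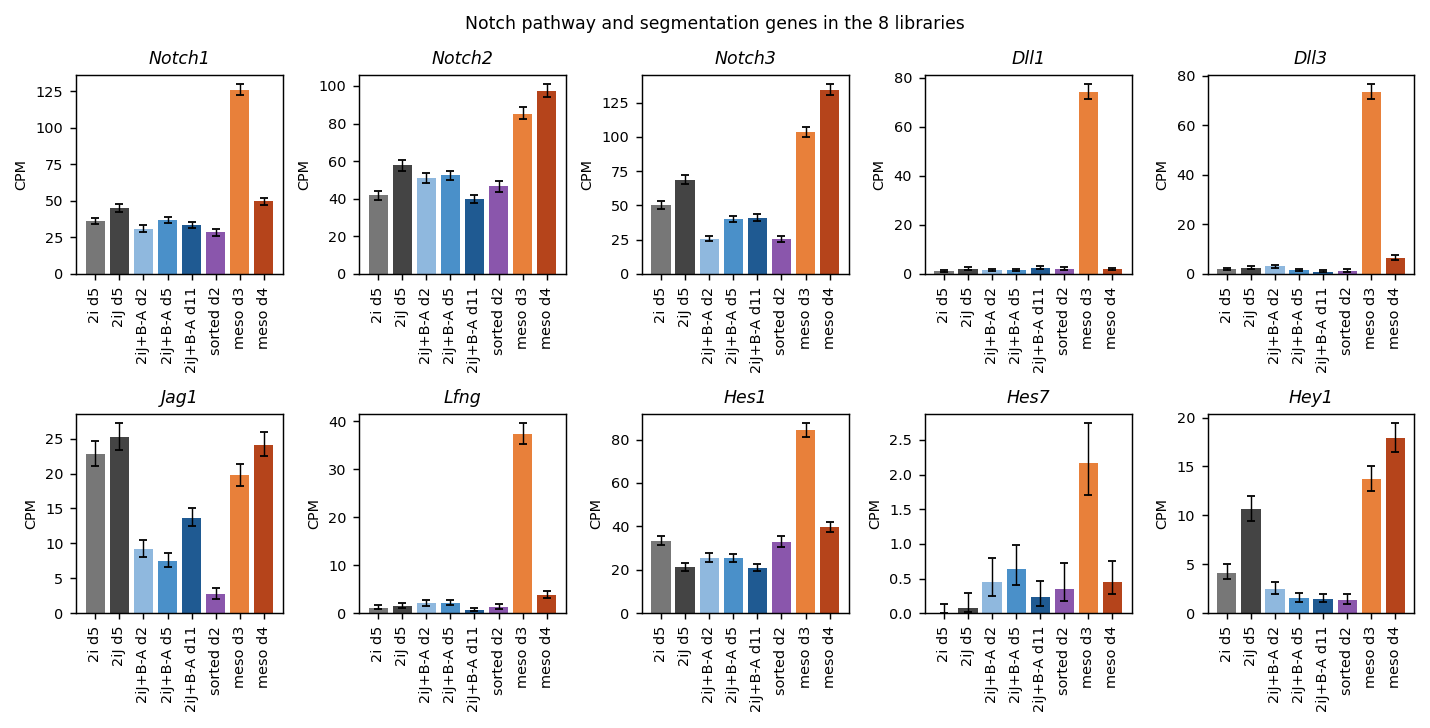
CPM of each gene (vertical axis, linear, own scale per gene) in the 8 libraries, with bars for the value and whiskers for the 95% Wilson counting interval. Dll1, Dll3 and Lfng stood at 74.4, 73.6 and 37.3 CPM in the day 3 mesoderm progenitors and at 6.49 CPM or less elsewhere, whereas Notch2, Notch3 and Hey1 were highest on day 4.

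The receptors were expressed in every library. Notch1, the receptor for which embryos lacking it show disordered somites, was at 126.0 CPM on day 3 and 49.6 CPM on day 4 of the mesoderm progenitors, and at 30.9, 37.0 and 33.3 CPM in 2iJ+B-A on days 2, 5 and 11. It was at 36.1 CPM in 2i, 45.0 CPM in 2iJ and 28.4 CPM in the sorted cells. Both mesoderm libraries lay above all 6 mESC libraries, but the day 4 value was close to that of 2iJ. The log2 fold change against 2iJ+B-A was 1.39 (SE 0.365, edgeR adjusted p = 0.0356).

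Notch2 was at 85.3 and 97.5 CPM in the mesoderm progenitors on days 3 and 4, and at 50.9, 52.4 and 39.8 CPM in 2iJ+B-A on days 2, 5 and 11. The 2i, 2iJ and sorted libraries stood at 41.9, 57.7 and 46.5 CPM. The mesoderm and mESC libraries did not overlap, and the spread within each was small. Its log2 fold change was 0.95 (SE 0.189, edgeR adjusted p = 0.0156).

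Notch3, a receptor known best from the smooth muscle of arteries, was at 103.4 and 134.5 CPM in the mesoderm progenitors and at 25.7, 40.1 and 41.1 CPM in 2iJ+B-A on days 2, 5 and 11. The 2i and 2iJ libraries held 50.2 and 68.7 CPM, and the sorted cells 25.5 CPM. The groups again did not overlap, with 2iJ the nearest mESC library. Against 2iJ+B-A its log2 fold change was 1.75 (SE 0.251, edgeR adjusted p = 0.00614).

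Ligand genes gave the widest differences between libraries. Dll1, which marks presomitic mesoderm, was at 74.4 CPM (71.4 to 77.4) on day 3 of the mesoderm progenitors and at 1.94 CPM (1.51 to 2.49) on day 4. In 2iJ+B-A it was at 1.43, 1.56 and 2.57 CPM on days 2, 5 and 11, in 2i at 0.959 CPM, in 2iJ at 2.06 CPM and in the sorted cells at 2.07 CPM. One mesoderm library thus stood far above every other, and the other lay inside the mESC range. The log2 fold change of 4.36 (SE 1.25, edgeR adjusted p = 0.0452) rested on day 3, and was 0.14 without it.

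Dll3 was at 73.6 CPM on day 3 and 6.49 CPM on day 4, against 2.98, 1.43 and 0.944 CPM in 2iJ+B-A on days 2, 5 and 11. It was at 1.85 CPM in 2i, 2.37 CPM in 2iJ and 1.21 CPM in the sorted cells, so that here both mesoderm libraries lay above all mESC libraries. Its log2 fold change was 4.49 (SE 1.02, edgeR adjusted p = 0.0228), and 1.93 without day 3.

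Jag1, the ligand of the Jagged class with broad roles in vessels, ear and bile ducts, followed another course. It was at 19.7 and 24.1 CPM in the mesoderm progenitors and at 9.21, 7.53 and 13.7 CPM in 2iJ+B-A on days 2, 5 and 11, but at 22.8 CPM in 2i and 25.2 CPM in 2iJ. The sorted cells had the lowest value, 2.73 CPM. Mesoderm progenitors lay above 2iJ+B-A and near 2i and 2iJ. Its log2 fold change was 1.12 against 2iJ+B-A (SE 0.326, edgeR adjusted p = 0.0471), and 0.25 against the average of the 2i, 2iJ and 2iJ+B-A groups (edgeR adjusted p = 0.571).

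Lfng was at 37.3 CPM on day 3 and 3.81 CPM on day 4 of the mesoderm progenitors. In 2iJ+B-A it was at 2.08, 2.13 and 0.684 CPM on days 2, 5 and 11, with 1.14 CPM in 2i, 1.56 CPM in 2iJ and 1.36 CPM in the sorted cells. Day 4 was still above each mESC library. Lfng had a log2 fold change of 3.66 (SE 0.966, edgeR adjusted p = 0.0359), and 1.30 without day 3.

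Among the Hes and Hey genes, Hes1, a repressor that Notch and other signals induce, was at 84.2 and 39.5 CPM in the mesoderm progenitors on days 3 and 4 and at 25.6, 25.4 and 21.0 CPM in 2iJ+B-A on days 2, 5 and 11. The 2i, 2iJ and sorted libraries stood at 33.5, 21.1 and 32.8 CPM. Both mesoderm values were above every mESC value, the second by a small margin over 2i. For Hes1 the log2 fold change was 1.37 (SE 0.324, edgeR adjusted p = 0.0256).

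Hes7, the repressor at the core of the segmentation clock, was scarce everywhere. It had 68 counts (2.16 CPM, 1.71 to 2.74) on day 3 and 14 counts (0.452 CPM) on day 4 of the mesoderm progenitors, and 11, 20 and 7 counts in 2iJ+B-A on days 2, 5 and 11. There were 7 counts in the sorted cells, 2 in 2iJ and 0 in 2i, where 3 counts would be 0.107 CPM. Only the day 3 library stood above the 2iJ+B-A range. The log2 fold change of 1.58 (SE 0.788) did not pass, with an edgeR adjusted p of 0.183. Over 12 alternatives it ranged from 0.12, with 1 library left out, to 4.56, and it passed in 1 of them.

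Hey1, a target of Notch in vessels and heart, was at 13.7 and 17.9 CPM in the mesoderm progenitors and at 2.49, 1.53 and 1.50 CPM in 2iJ+B-A on days 2, 5 and 11. It was at 4.16 CPM in 2i, 10.6 CPM in 2iJ and 1.36 CPM in the sorted cells. The 2 mesoderm values were the highest of the 8, and day 4 was the highest of all for Hey1, Notch2 and Notch3, as for 21.1% of all genes tested. The log2 fold change was 3.11 (SE 0.400, edgeR adjusted p = 0.00470).

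Both mesoderm libraries lay above all 6 mESC libraries for 7 of the 10 genes (Notch1, Notch2, Notch3, Dll3, Lfng, Hes1 and Hey1), a pattern that 19.3% of all genes tested showed. None of the 10 lay below all 6, as 20.2% of all genes did. The calls differed in how much they rested on single libraries. Without day 3 of the mesoderm progenitors 3 genes passed (Notch2, Notch3 and Hey1), and without day 4 there were 8, Jag1 being lost. Leaving out a 2iJ+B-A library gave 3 genes without day 2 (Notch2, Notch3 and Hey1), 2 without day 5 (Notch3 and Hey1) and 4 without day 11 (Notch2, Notch3, Jag1 and Hey1). Notch3 and Hey1 passed in each of the 5.

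**Figure D2:**
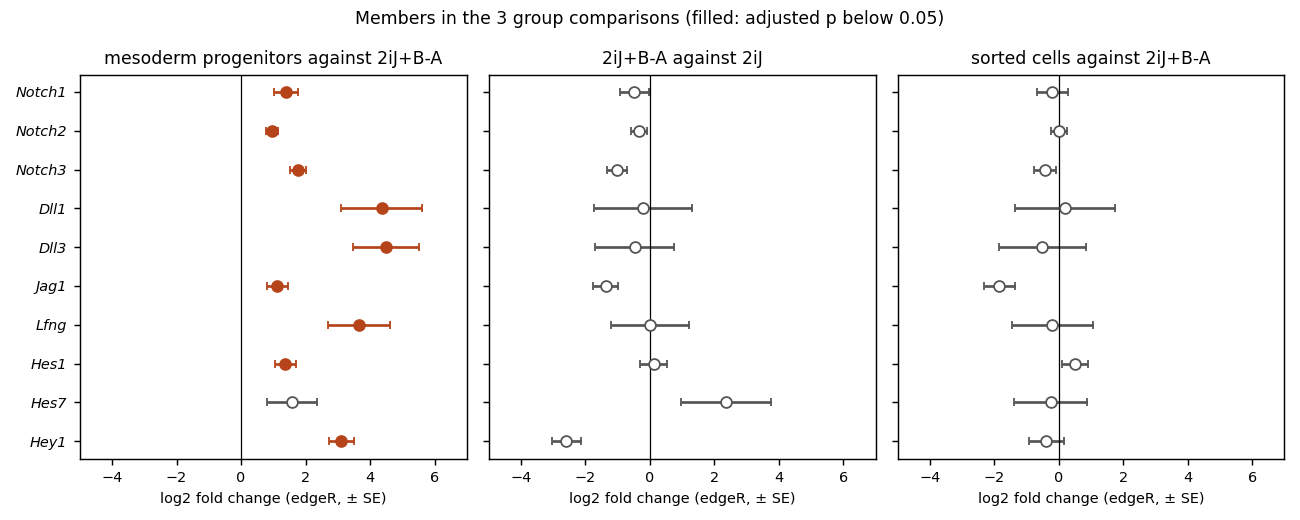
Log2 fold change (horizontal axis) of each gene in the 3 group comparisons, as points with bars of 1 SE from the edgeR fit, filled where the adjusted p was below 0.05. The 9 filled points are all in the comparison of mesoderm progenitors with 2iJ+B-A, between 0.95 for Notch2 and 4.49 for Dll3.

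Other genes of the pathway were counted from lists of 68 genes, of which 59 were tested. In the mesoderm progenitors 18 were higher and 7 lower than in 2iJ+B-A, beside 11.5% and 15.5% of all genes tested. Without 2iJ+B-A day 5 these counts were 10 and 3, in a fit that also called fewer of all genes tested. Segmentation and somite genes gave most of these, with 12 higher and 3 lower of 20 tested and a median log2 fold change of 3.27. Without 2iJ+B-A day 5 it was 8 and 2 of 20. The rest of the Notch machinery gave calls in both directions, where 27% of all genes tested passed in either direction. Of 17 genes for processing of ligands and receptors 1 was higher and 2 lower, and of 8 modulators 1 was higher and 1 lower. Of 7 genes of the nuclear complex 2 were higher and 1 lower. Of 4 further genes listed as targets (Hes6, Hey2, Nrarp and Id1) 2 were higher, and whether Notch induced them was not tested. None of these targets passed when any 1 of the 2iJ+B-A libraries was left out, and 1 of the nuclear complex genes was then higher. The processing genes gave 4 higher and 0 lower without mesoderm progenitor day 3.

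Among the segmentation genes, Mesp1, a factor of nascent mesoderm, was at 181.3 CPM on day 3 and 6.36 CPM on day 4 against 0 to 0.286 CPM in 2iJ+B-A, a log2 fold change of 9.37 (SE 1.65, edgeR adjusted p = 0.0109). It passed the filter on low counts only through the 2 mesoderm libraries, so that it had to differ, and was not tested without either of them. Fgf8, the growth factor of the posterior presomitic mesoderm, differed by 7.39 (edgeR adjusted p = 0.00638) and Tbx6, the factor that specifies this tissue, by 5.62 (edgeR adjusted p = 0.0214). Dusp4, a phosphatase induced by ERK signalling, differed by 4.74 (edgeR adjusted p = 0.00179) and Foxc1, a forkhead factor of paraxial mesoderm, by 4.71 (edgeR adjusted p = 0.00953). The call of Tbx6 was lost without day 3 of the mesoderm progenitors and whichever of the 3 2iJ+B-A libraries was left out, while those of Fgf8, Dusp4 and Foxc1 passed whichever of the 5 libraries was left out.

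Lower in the mesoderm progenitors was Rbpj itself, the DNA-binding partner of the receptors. It was at 71.6 and 91.9 CPM in the mesoderm progenitors, at 172, 232 and 272 CPM in 2iJ+B-A on days 2, 5 and 11, at 195 CPM in 2i, 174 CPM in 2iJ and 111 CPM in the sorted cells. The 2 mesoderm values were the lowest, while the 3 receptors were at their highest there. The log2 fold change of Rbpj was -1.45 (SE 0.239, edgeR adjusted p = 0.00927), and it passed whichever of the 5 libraries was left out. The largest falls among the genes called lower were in the segmentation and somite list. They were those of Tbx18 (-5.26, edgeR adjusted p = 0.0158) and Ripply1 (-2.97, edgeR adjusted p = 0.0121), named after their values were seen. Also lower were Mib2, a ubiquitin ligase for ligands (-1.48, edgeR adjusted p = 0.0478), and the ephrin receptor gene Epha4 (-1.34, edgeR adjusted p = 0.0195). So were Poglut1, which glucosylates Notch (-0.64, edgeR adjusted p = 0.0311), and Fbxw7, which marks the cut receptor for breakdown (-0.55, edgeR adjusted p = 0.0494). Each of these 4 calls was lost without at least 1 library.

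Some genes of these other groups were picked out after their values were seen. Of the nuclear complex, Maml3, a Mastermind-like coactivator, was at 18.1 and 41.1 CPM in the mesoderm progenitors and 1.63 to 3.85 CPM in 2iJ+B-A (log2 fold change 3.49, edgeR adjusted p = 0.00668), and Maml1 differed by 0.72 (edgeR adjusted p = 0.0305). The call of Maml3 passed whichever of the 5 libraries was left out, and that of Maml1 only without mesoderm progenitor day 3. Mib1, the ubiquitin ligase that lets ligands signal, was at 230 and 296 CPM against 80.4 to 93.4 CPM (log2 fold change 1.59, edgeR adjusted p = 0.00292). Of the genes listed as targets, Hes6 differed by 1.43 (edgeR adjusted p = 0.0267) and Hey2 by 4.13 (edgeR adjusted p = 0.0498). Both calls were lost whichever 2iJ+B-A library was left out. The Hey2 value rested on day 4, and was 0.13 without it (edgeR adjusted p = 0.907). That of Hes6 was also lost without day 3. Dtx3 differed by 1.29 among the modulators (edgeR adjusted p = 0.0146), a call lost without 2iJ+B-A day 5 (edgeR adjusted p = 0.0530).

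The receptor and ligands outside the 10 gave no call in this comparison. Notch4, the endothelial receptor, was at 2.26 and 2.04 CPM in the mesoderm progenitors and at 4.24, 5.06 and 1.66 CPM in 2iJ+B-A (log2 fold change -0.75, edgeR adjusted p = 0.324). Jag2 was at 9.25 and 2.55 CPM against 12.3, 13.8 and 9.96 CPM (-1.02, edgeR adjusted p = 0.207). Dll4, the ligand of arterial endothelium, was too low to test, with 30 counts on day 4 and 0 to 7 counts elsewhere. Nrarp, a feedback inhibitor that Notch induces, was at 43.4 and 5.98 CPM against 7.34, 3.62 and 3.12 CPM (2.39, edgeR adjusted p = 0.0726).

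The mesoderm progenitors of days 3 and 4 differed widely in several of these genes. With 1 library a day there is no test, and time and IWP-2 cannot be told apart. Of the 10 genes, 6 were lower by at least 1 log2 unit on day 4, against 11.8% of all genes tested, and none was higher by that much, against 9.03% (20.9% in either direction). Dll1 was 37.0-fold lower on day 4 (log2 difference -5.21, counting interval -5.66 to -4.89). Dll3 was 11.2-fold lower (-3.49, -3.72 to -3.30) and Lfng 9.63-fold lower (-3.27, -3.58 to -3.02). Hes7 fell from 68 to 14 counts, a log2 difference of -2.09 (-3.20 to -1.41).

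Notch1 and Hes1 were lower by less, 2.54-fold and 2.13-fold. The 4 remaining genes were slightly higher on day 4, Notch3 and Hey1 by 0.38, Jag1 by 0.29 and Notch2 by 0.19 on the log2 scale, and all 4 counting intervals lay above 0. The median difference of the 10 genes was -1.22 and that of all genes was 0.00. The ligands Dll1 and Dll3, the modifier and the 2 Hes genes thus stood on one side, and Jag1, Hey1 and 2 of the 3 receptors on the other.

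Other segmentation genes differed between the days in the same sense, with 12 of 20 lower and 2 higher by at least 1 log2 unit and a median of -1.13. Wnt3a, a Wnt ligand of the primitive streak and tail bud, stood at 16.3 CPM on day 3 and 3 counts on day 4. The log2 difference was -4.82 for Mesp1, -4.62 for Tbx6, -4.30 for Mesp2, which sets the somite boundary, and -2.91 for Fgf8. Genes higher on day 4 were Snai2, a repressor of epithelial genes (difference 5.19), Hey2, a Hey factor of arteries and ventricles (4.89, from 1.05 to 33.1 CPM), the non-canonical ligand Dlk1 (2.75), Neurl1b (2.26) and Aph1b, a subunit of the secretase that cuts Notch (1.51). Over all 59 pathway genes tested, 8 were higher and 16 lower.

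Markers of other cell types moved between the same libraries. The 9 streak and nascent mesoderm genes went from 1893 to 302 CPM, with all 9 at 10 counts or more on day 3 and 8 of 9 on day 4. Cardiac mesoderm genes went from 19.8 to 370 CPM (4 and then 6 of 6 genes at 10 counts or more) and endothelial and blood genes from 76.7 to 421 CPM (6 and then 7 of 7). Neuroectoderm genes stood at 204 CPM on day 3, with 2 of 5 genes at 10 counts or more, and at 26.5 CPM on day 4. Endoderm genes stood at 121 and 336 CPM, with 5 of 6 genes at that count on both days. Most of the endoderm sum was Gata4, at 96.6 and 225.8 CPM, and Gata6, at 19.9 and 98.7 CPM. Foxa2 went the other way, from 1.75 to 0.0646 CPM. The part of these cell types in the values of the 10 genes was not tested.

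**Figure D3:**
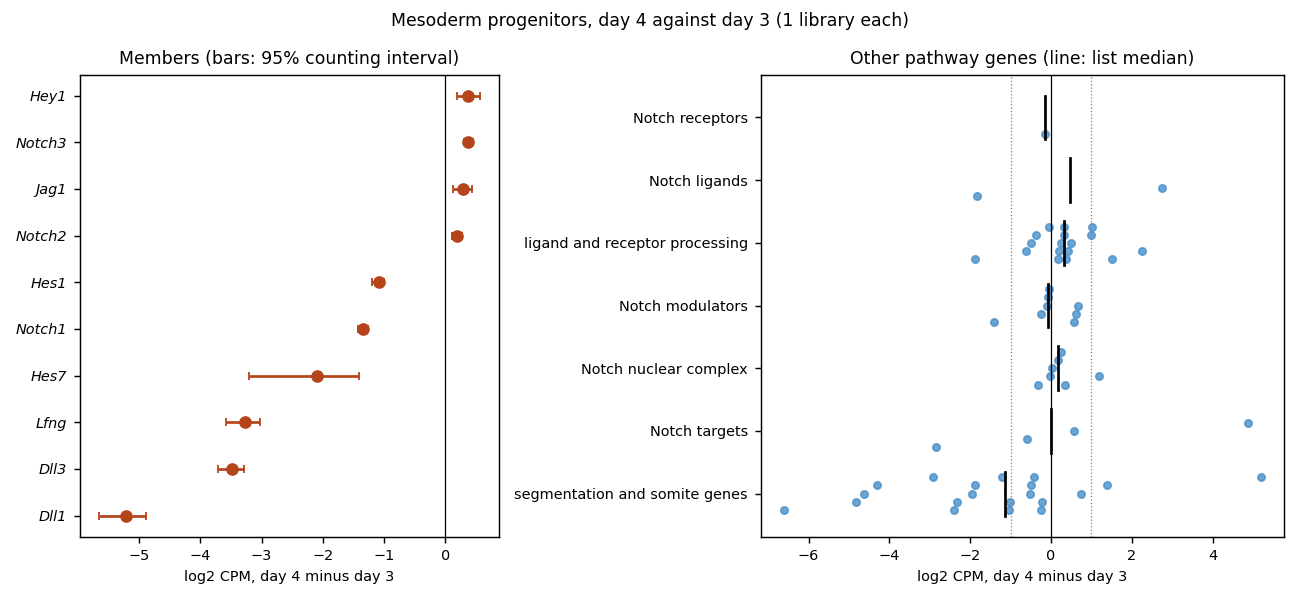
Difference in log2 CPM (horizontal axis) between day 4 and day 3 of the mesoderm progenitors, 1 library each, for the 10 genes with 95% counting intervals (left) and for the other pathway genes by list, with a line at each list's median (right; dotted lines at 1 log2 unit). Dll1, Dll3 and Lfng lie between -5.21 and -3.27, and the segmentation and somite genes have the lowest median of the lists, -1.13.

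Adding BMP4 and ALK5 inhibitor to 2iJ gave no call among the 10 genes. For Notch3, Jag1 and Hey1 every 2iJ+B-A library lay below both 2i and 2iJ, as it did for 17% of all genes tested. Hes7 alone lay above both in every 2iJ+B-A library, against 26.5% of all genes. Hey1 was at 1.50 to 2.49 CPM in 2iJ+B-A and 10.6 CPM in 2iJ, a log2 fold change of -2.59 (SE 0.455, edgeR adjusted p = 0.343). Jag1 differed by -1.37 (SE 0.392, edgeR adjusted p = 0.491) and Notch3 by -1.01 (SE 0.305, edgeR adjusted p = 0.520).

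No gene at all passed in this comparison (0% of those tested), where a single 2iJ library was set against 3. At an unadjusted p below 0.05 there were 1290 genes, among them these 3, and the lowest edgeR adjusted p was 0.244. The DESeq2 Wald test called 305 genes, of which Hey1 was 1 (-2.61, DESeq2 adjusted p = 0.000437). With 2i and 2iJ taken as 1 reference group edgeR called 150 genes and none of the 10, the adjusted p of Jag1 being 0.0827 and that of Hey1 0.0836. Hes7 had 38 counts over the 3 2iJ+B-A libraries and 2 counts in 2iJ, a ratio of 5.63 with a counting interval of 1.46 to 48.2. That interval pools the 3 days and leaves out the spread between libraries. With that spread, the log2 fold change of Hes7 was 2.36 (SE 1.39, edgeR adjusted p = 0.795). The other 6 genes differed from 2iJ by between -0.48 and 0.12 on the log2 scale.

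Like Notch3, Jag1 and Hey1, Notch4 lay below both 2i and 2iJ in every 2iJ+B-A library. It stood at 21.2 CPM in 2i, 20.6 CPM in 2iJ, 1.66 to 5.06 CPM in 2iJ+B-A and 3 counts in the sorted cells. Its log2 fold change between 2iJ+B-A and 2iJ was -2.56 (SE 0.576, edgeR adjusted p = 0.411). None of the 59 other pathway genes passed in this comparison, and their median log2 fold change was 0.12. Among them Id1, named after its values were seen, had a log2 fold change of 3.22 (SE 0.353). Its adjusted p equalled the lowest of all genes tested. Id1 stood at 11.8 CPM in 2iJ and at 103 to 132 CPM in 2iJ+B-A.

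Within 2iJ+B-A the 10 genes gave no trend that passed. Slopes ran from -0.69 for Dll3 to 0.33 for Dll1 per doubling of the day, and no gene of the 16961 passed in edgeR (0%). At an unadjusted p below 0.05 there were 1004 genes and none of the 10, and DESeq2 called 115 genes and none of the 10. Dll3, Hes1 and Hey1 fell on each step between days 2, 5 and 11, as 21.4% of all genes did, and Notch3 and Dll1 rose on each, as 23.5% did.

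Cells sorted for the Cdx2 reporter were compared with unsorted 2iJ+B-A cells. Line, sort and library quality cannot be told apart here. The day differs too, because the sorted cells are of day 2 and the reference holds days 2, 5 and 11. With a slope on log2 day added and the comparison made at day 2, 27 genes passed. None of the 10 genes passed in edgeR, against 5.42% of all genes (919 genes, 3.34% higher and 2.08% lower). Jag1 came nearest, with 2.73 CPM (2.09 to 3.56) in the sorted cells and 7.53 to 13.7 CPM in 2iJ+B-A, a log2 fold change of -1.85 (SE 0.483, edgeR adjusted p = 0.0748). It was the only 1 of the 10 at an unadjusted p below 0.05, as 4586 genes were, and the only 1 that DESeq2 called (-1.84, DESeq2 adjusted p = 0.00392, among 2697 genes).

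Notch1, Notch3, Jag1 and Hey1 were lower in the sorted cells than in all 3 2iJ+B-A libraries, and Hes1 was higher. These patterns held for 41.7% and 33.5% of all genes. Against 2iJ+B-A day 2, the same day, counting intervals overlapped for Notch3 (25.5 CPM sorted and 25.7 CPM on day 2), Notch1 and Hey1. They did not overlap for Jag1 and Hes1. Trophectoderm markers summed to 3899 CPM in the sorted cells, with all 8 at 10 counts or more, and to 456 to 1328 CPM in 2iJ+B-A. Most of the sum in the sorted cells was Krt8, at 1731 CPM, and Krt18, at 1595 CPM. Cdx2, on whose reporter the cells were sorted, stood at 235 CPM. Hand1, at 36.6 CPM, lay inside its 2iJ+B-A range of 8.98 to 99.5 CPM. Fibroblast markers summed to 93.5 CPM, with all 6 at 10 counts or more, against 7.97 to 12.6 CPM and 4 or 5 of 6. Their part in these differences was not tested. Of the other pathway genes 2 passed in edgeR. Dusp4 was at 52.1 CPM in the sorted cells and 3.06 to 7.88 CPM in 2iJ+B-A (log2 fold change 3.13, edgeR adjusted p = 0.0222). Ripply1, a corepressor named after its values were seen, had 4 counts in the sorted cells and 2.85 to 5.86 CPM in 2iJ+B-A (-4.30, edgeR adjusted p = 0.0437). The sorted cells are 1 library whose spread was taken from the other groups, and the number of genes called ranged from 37 to 2052 when 1 library was left out, so these calls describe that library. Notch4 differed by -4.50 (edgeR adjusted p = 0.0509).

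Between 2iJ and 2i, with 1 library each and no test, Dll1, Hes7 and Hey1 were higher in 2iJ by at least 1 log2 unit, as were 4.95% of all genes tested (7.19% in either direction). Hey1 went from 117 to 273 counts, a log2 difference of 1.34 (counting interval 1.04 to 1.68). Dll1 went from 27 to 53 counts (1.05, 0.41 to 1.83). Hes7 had 0 and 2 counts, so no fold is given. Hes1 was lower in 2iJ (log2 difference -0.66, from 942 to 543 counts), and no gene of the 10 was lower by 1 unit (2.24% of all genes were). Of the 59 other pathway genes 8 were higher and 1, the FGF feedback gene Spry2, was lower (-1.10).

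Levels of different genes were compared per kilobase of exon. In the 2iJ+B-A libraries Hes1 was the highest of the 10, at 11.8 ± 1.27 CPM per kb (SD, n = 3). Notch2 at 4.54 ± 0.655 and Notch3 at 4.43 ± 1.07 CPM per kb did not differ beyond their spread. Notch1 at 2.37 ± 0.215 and Jag1 at 1.74 ± 0.544 CPM per kb followed, with overlapping libraries. Hey1, Lfng, Dll3 and Dll1, at 0.834 ± 0.256, 0.715 ± 0.360, 0.620 ± 0.369 and 0.439 ± 0.148 CPM per kb, could not be ordered within their spread, and Hes7 was the lowest at 0.242 ± 0.113 CPM per kb.

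In the day 3 mesoderm progenitors the order of levels was another. Hes1 was again the highest, at 41.3 CPM per kb, and Dll3 followed at 25.6, Dll1 at 17.6 and Lfng at 16.4 CPM per kb, all 3 above the receptors Notch3 at 12.8, Notch1 at 8.85 and Notch2 at 8.12 CPM per kb. Hey1 stood at 6.22, Jag1 at 3.39 and Hes7 at 1.20 CPM per kb. On day 4 Hes1 at 19.4 and Notch3 at 16.7 CPM per kb led, and Dll1 had the second lowest level, 0.459 CPM per kb.

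**Figure D4:**
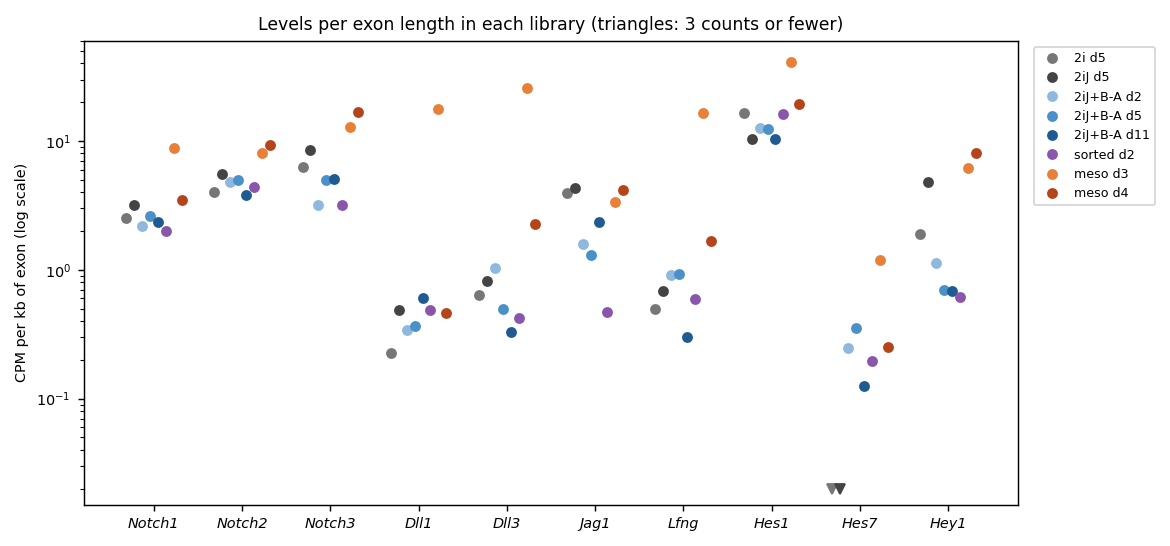
CPM per kilobase of exon (vertical axis, log scale) for each gene in each of the 8 libraries, with triangles at the lower edge where a library had 3 counts or fewer. Hes1 is the highest gene in every mESC library, and Dll1, Dll3 and Lfng in the day 3 mesoderm progenitors, at 17.6, 25.6 and 16.4 CPM per kb, stand apart from their other values.

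The genes whose course over the 8 libraries lay closest to each of the 10 were sought among 10903 genes, by the root mean square difference of centred log2 CPM. The nearest to Dll3 was Mesp2, at 0.44 log2 units, and the second was Lfng at 0.47. Lfng had Dll3 first, then Fgf3 at 0.52 and Mesp2 at 0.54. Candidates had a mean of at least 5 CPM. Dll3, Lfng and Mesp2 reached it only through day 3 of the mesoderm progenitors (73.6, 37.3 and 35.6 CPM). Their likeness was thus largely set by that 1 library. Dll1 had no gene closer than Cxx1c at 0.55. Notch1 had Pip4k2a at 0.19, Notch2 had 1500011H22Rik at 0.11 and Notch3 had Isyna1 at 0.20. Jag1 had Ldlrad3 at 0.28, Hes1 had Dnajc15 at 0.21, Hes7 had Arl4c at 0.45 and Hey1 had Sirpa at 0.42. Distances grow with a gene's own range, so they do not compare across the 10 genes.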

How the data were processed

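RNA-seq of poly-A RNA was analysed in 8 libraries. The authors prepared them with a directional kit, sequenced read pairs and, per the labels, used bcl2fastq 2.17, cutadapt, STAR 2.4.2a and the NCBIM37 genome. The deposited values are raw counts per gene from STAR, and the counts on the strand that the kit reads were used (24532587 to 31453888 per R1 library, 19810855 sorted). The release of the authors' annotation is not given in the sources used here. GENCODE symbols named 37205 of 37620 genes. Multimapping pairs are not in these counts, so reads shared by near-identical copies are missing.

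The 10 genes, the pathway lists (68 genes) and the marker lists (55 of 56 genes used) were chosen with earlier results of these data known. Groups were taken from the labels, and the days of a group served as its samples. All 8 libraries were fitted in edgeR 4.0.16 (R 4.3.3) with 1 coefficient per group, TMM scaling (factors 0.966 to 1.04), a quasi-likelihood test, Benjamini-Hochberg adjustment over 16961 genes and 3 residual degrees of freedom (2 for the slope on log2 day). The spread came from the 2iJ+B-A and mesoderm progenitor libraries, and groups with 1 library, also after another was left out, were assumed to vary like them. The standard error was taken from the fold change and its F statistic. Single libraries were compared as log2 CPM with a prior count of 2. DESeq2 1.42.0, other scaling, filters, strands, references and left-out libraries were the alternatives. The fit was tested on simulated data. Other pathway genes named are those called in a comparison, up to 5 per direction by size, the higher group averaging 5 CPM or more, and Rbpj, Notch4, Jag2, Dll4 and Nrarp in any case. RefSeq sequences are those of GRCm38.p6.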

Additional observations from a re-analysis of the deposited data

Results flagged for a closer look

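Counts on the strand opposite to a gene are not part of the comparisons, and 2 values there stood above the level of their library. In the sorted cells 14.6% of strand-assigned counts of Dll1 (7 of 48, Wilson interval 7.25% to 27.2%) and 16.9% of those of Jag1 (interval 9.72% to 27.8%) were on the opposite strand, where the share over all genes of that library was 5.03%. An antisense gene, A930024N18Rik, is annotated across Dll1, and none across Jag1.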

How the results depend on the processing

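No paired analysis was possible because the labels carry no replicate numbers. The direction of all 10 genes in the comparison of mesoderm progenitors with 2iJ+B-A held under each alternative. Leaving out 1 library in turn gave 2019 to 4538 genes and 2 to 8 of the 10 genes there. The same gave 37 to 2052 genes for the sorted cells and 0 to 469 genes for the slope. With DESeq2, 305 genes and 1 of the 10 were called between 2iJ+B-A and 2iJ, 2697 genes and 1 of the 10 in the sorted cells, and 115 genes for the slope. With 2i and 2iJ as 1 reference, 150 genes were called. The count for the sorted cells was 1390 without a filter on low counts, 1911 with only the 2 groups in the fit and 27 with the comparison made at day 2 of a slope. The slope gave 2 genes without a filter. With unstranded counts, 1 of the 10 passed 1 log2 unit between 2iJ and 2i. A fit without the sorted library, chosen after seeing the data, changed no call of the 10. The cause of these shifts was not tested.

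Signs reversed only for differences that did not pass. Between 2iJ+B-A and 2iJ, Lfng was at 0.00046 without a filter, 0.013 with unstranded counts and 0.20 with the pooled reference, where Dll1 was at 0.23 and Hes1 at -0.26. With a library left out, Lfng ranged from -0.23 to 0.37. In the sorted cells Notch2 was at -0.039 without a filter, -0.015 with unstranded counts and -0.17 at day 2, and Hes7 at 0.15 with unstranded counts. With a library left out, Notch2 ranged from -0.097 to 0.080, Dll3 from -0.81 to 0.094, Lfng from -0.57 to 0.024 and Hes7 from -0.56 to 0.10. The slope of Hes7 was 0.23 with unstranded counts and ranged from -1.26 to 0.32 with a library left out, as Notch1 did from -0.11 to 0.14, Hey1 from -0.59 to 0.0039 and Jag1 from -0.28 to 0.78.

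Precision is limited by 1 library per day. At these depths 3 counts correspond to 0.0954 to 0.151 CPM, so values of Hes7 below that level in 2i and 2iJ were not resolved.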

Other observations

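The gene for Msgn1, a factor of presomitic mesoderm, was in the segmentation list but had 10 counts in only 1 library and was not tested. It had 425 counts (13.5 CPM, interval 12.3 to 14.9) in the day 3 mesoderm progenitors, 1 count on day 4 and 0 to 8 counts in the mESC libraries. Ripply2, a corepressor that acts at the somite boundary, had 10 counts on day 3 and 0 in each of the other 7 libraries. Hes5, a Notch target of neural progenitors, had 0 to 6 counts in every library, and Heyl had the same range. Uncx, a marker of the posterior part of each somite, had 0 counts in both mesoderm libraries and 25 counts in the sorted cells.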
